A study of Mus musculus with 6 samples.

Results

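The genes described here are the long intergenic noncoding RNA (lincRNA) genes that differed between the mouse ovarian cancer lines ID8 and KMF. They are the rows of the deposited expression table whose gene type is lincRNA. There were 164 such rows, and H19, an imprinted gene, was left out, so that 163 of the 7320 listed genes are described. Kcnq1ot1 was also to be left out and had no row of this type. No measured value entered this choice, but the table lists only genes that its authors had already called different on the same libraries, 42.2% of the 17359 genes tested.

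ID8 was derived from transformed ovarian epithelial cells of C57Bl6 mice. KMF, labelled id8ip in the sample titles, came from ID8 cells passaged in vivo, on the same strain, and carries spontaneous DNA gains as well as losses. Both lines were grown without treatment for 5 days as tumorspheres, floating cell clusters in PromoCell XF medium. Each line had 3 libraries, from passages 23, 24 and 35 for ID8 replicates 1, 2 and 3 and passages 14, 17 and 22 for KMF replicates 1, 2 and 3. Since each line is 1 isolate, a difference between them describes these lines, and line and passage range cannot be told apart. RNA was enriched with poly-T beads, so that transcripts without a poly-A tail were poorly captured, and the library kit does not mark strand.

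A lincRNA is transcribed by RNA polymerase II, usually capped and spliced, lacks a long open reading frame, and lies in its first definition between protein-coding genes. Some act in the nucleus on chromatin or splicing, some are hosts from whose introns small nucleolar RNAs (snoRNAs) or microRNAs are cut, and for many only the act of transcription, or nothing, is known to matter. They are as a class low in level and restricted to few cell types, and many start next to a protein-coding gene and are read in the opposite direction.

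Libraries held between 23108407 and 33212313 fragments on genes, so that 3 counts, taken as the floor, equalled 0.0903 to 0.130 counts per 1e6 fragments (CPM). No library stood apart in total, and none of the same line agreed within sampling noise. Of 10 epithelial marker genes 6 were listed, 5 of them lower in KMF and Msln higher, with a summed level of 143.1 to 210.8 FPKM (fragment counts made comparable by gene length and library size) in ID8 and 146.7 to 196 in KMF. Of 6 fibroblast markers 4 were listed, all lower in KMF, at 77.4 to 107.3 against 13.5 to 25.9 FPKM. Of 8 leukocyte markers only Cd74 was listed, at 0.857 to 1.59 against 0.215 to 0.391 FPKM. Of 6 endothelial markers Tek and Kdr were listed, at 0.0260 to 0.0877 against 27.7 to 47.6 FPKM in sum, and Kdr was at 0 counts in every KMF library. The part of these in the lincRNA values was not tested, and in bulk RNA fewer cells of a type and less RNA per cell cannot be told apart.

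Most lincRNAs were lower in KMF. Of the 163, 111 were lower and 52 higher, so that 31.9% were higher, compared with 48.7% of all listed genes and 49.6% of the 6901 listed protein-coding genes. Of the other noncoding types of the table, 34.2% of 79 antisense and 24.0% of 100 processed transcripts were higher, while the 72 pseudogenes, at 48.6%, were level with all listed genes. Counts were tested with edgeR's quasi-likelihood test, and genes with a Benjamini-Hochberg adjusted p under 0.05 over the 17359 genes are termed called. The filter on low counts kept 134 lincRNAs, and 122 of these were called, 91.0% against a background of 92.9% of all fitted listed genes. The 39 called higher stand against 45.4% of all fitted genes called in that direction, and the 83 called lower against 47.5%. Because listing itself required a difference, these counts describe the listed genes and are no estimate of how many lincRNAs changed.

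Differences were larger in size than over all fitted genes, as they were for the other noncoding types. The median log2 fold change (KMF against ID8) of the fitted lincRNAs was -0.92, compared with -0.23 over all fitted genes and 0.22 over protein-coding genes. Without regard to sign the median was 1.51 against 0.79 for all fitted genes, 1.56 for antisense genes, 1.44 for pseudogenes and 1.37 for processed transcripts. A total of 91 lincRNAs were called and changed at least 2-fold, 32 higher and 59 lower, against a background of 40.5% of fitted genes. The CPM of the 2 lines did not overlap for 125 of the 134 fitted lincRNAs, where the background was 96.6%. Precision was lower than over all fitted genes, since the median standard error of the log2 fold change was 0.325 against 0.133, and near that of antisense genes (0.355) and pseudogenes (0.297). A gene had to differ by more to be listed at such errors, and the part of this in the sizes was not tested.

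Levels were low. The median FPKM over the 6 libraries was 0.769 for lincRNAs and 9.08 for all listed genes, and the median gene length was 2077 against 3122 bases. Mean FPKM exceeded 1 in both lines for 51 lincRNAs, in ID8 alone for 28, in KMF alone for 11 and in neither line for 73. The last is 44.8% of the lincRNAs, compared with 14.3% of all listed genes. The other noncoding types were low too. For antisense genes, processed transcripts and pseudogenes this share was 31.65%, 36% and 33.3%, and the median FPKM 1.088, 1.085 and 1.703. In sum the lincRNAs took up 0.557%, 0.305% and 0.417% of the fragments in ID8 replicates 1, 2 and 3, and 0.191%, 0.216% and 0.185% in KMF. All ID8 values lay above all KMF values. Malat1 alone carried 47.1% to 65.1% of the lincRNA counts in ID8 and 44.0% to 56.2% in KMF, and without Malat1 and Xist the sums were 0.130% to 0.138% in ID8 and 0.0849% to 0.0943% in KMF.

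**Figure D1:**
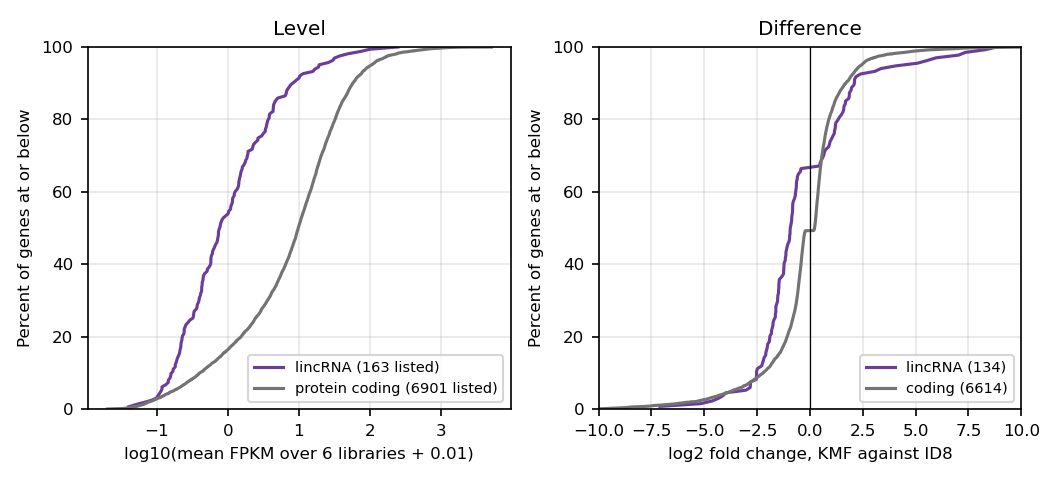
Cumulative share of genes by level (left, log10 of mean FPKM over 6 libraries plus 0.01) and by log2 fold change of KMF against ID8 (right), for lincRNA and protein-coding genes. The lincRNA curve lies to the left in level (median 0.769 FPKM) and crosses 0 at a higher share in the right panel, since 83 of the 122 called lincRNAs were lower in KMF.

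Of the 16 listed lincRNAs with a described function, from a list of 77 such genes, 14 were called, 3 higher and 11 lower in KMF, a share near the background of 92.9% of fitted genes called. The list was put together with earlier results of these data known. The highest in level was Malat1, a nuclear-retained RNA of splicing speckles. How fully and evenly the poly-T beads captured Malat1 in each library was not tested. Malat1 held 106968, 34632 and 61853 counts in ID8 and 19804, 28042 and 27339 in KMF, which is 357 ± 157 and 137 ± 31.6 FPKM (SD, n = 3). The groups did not overlap, but ID8 replicate 1 stood well above the other two. The log2 fold change was -1.33 ± 0.32 (SE, edgeR adjusted p = 0.0117), and -0.96 without ID8 replicate 1 (adjusted p = 0.0287). Over all fits without 1 library the edgeR adjusted p of Malat1 reached 0.0496, close to the threshold.

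Xist, the RNA that coats and silences the inactive X chromosome in female cells, was also lower. Its counts were 16595, 7440 and 11292 in ID8 and 3004, 1473 and 5944 in KMF. Every KMF library was below every ID8 library, and the log2 fold change was -1.78 ± 0.36 (edgeR adjusted p = 0.00566). Jpx, a neighbouring noncoding gene known as an activator of Xist, held 230, 92 and 129 counts in ID8 and 67, 72 and 98 in KMF. Its log2 fold change of -0.86 ± 0.28 was close to the threshold (edgeR adjusted p = 0.0442), and the call was lost in 5 of the 6 fits without 1 library (adjusted p up to 0.188 without ID8 replicate 1), and held only without ID8 replicate 2. The 4 listed lincRNAs of the X chromosome were all lower, where 37.5% of the 256 listed genes of that chromosome were higher.

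A snoRNA of GENCODE release M21 lies on the same strand within 8 of the lincRNAs, of which 5 were called lower in KMF, 2 higher and 1 was not called, against the same background of 92.9% called. The 5 deposited with the name of small nucleolar RNA host genes, whose introns carry snoRNAs, were lower or not called. A gene outside these 8, 2810008D09Rik (now Snhg20), was also lower (-0.85 ± 0.25, edgeR adjusted p = 0.0312), though libraries of the lines overlapped. Snhg18 fell the most, from 1362, 1177 and 956 counts to 340, 295 and 309 (log2 fold change -1.82 ± 0.19, edgeR adjusted p = 0.000247). Snhg6 was at 60.5 ± 1.73 FPKM in ID8 and 38.9 ± 4.70 in KMF (log2 fold change -0.60 ± 0.10, edgeR adjusted p = 0.00273). Both had groups that did not overlap. Snhg4 and Snhg12 were called at -0.65 ± 0.17 and -0.44 ± 0.12 (edgeR adjusted p = 0.0179 and 0.0204). The call of Snhg4 was lost without ID8 replicate 1 (adjusted p = 0.0753). That of Snhg12 was lost without ID8 replicate 1 (0.0923), KMF replicate 2 (0.0881) or KMF replicate 3 (0.0672). Snhg7 was at -0.61 ± 0.21 and not called (edgeR adjusted p = 0.0550). Snhg7 was called in other settings, DESeq2 among them. In the fits without 1 library the edgeR adjusted p of Snhg7 went down to 0.0352, so that it was called in at least 1 of these. Its identifier now belongs to the snoRNA Snora43 in GENCODE release M21, so its value may not be that of the whole host gene. The 2 that were higher were 9430037G07Rik, with 25, 20 and 24 counts against 50, 89 and 110 (1.86 ± 0.30, edgeR adjusted p = 0.00207), and 9330159M07Rik, with 82, 73 and 68 against 136, 159 and 220 (1.23 ± 0.18, edgeR adjusted p = 0.00135). snoRNAs themselves are not captured by poly-T beads.

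Of the others on this list that were called lower, 1010001N08Rik (RefSeq name Gata6os), read away from the start of the endoderm and mesoderm regulator Gata6, fell from 437, 231 and 362 counts to 38, 62 and 73. All KMF libraries were below the lowest ID8 library (log2 fold change -2.53 ± 0.25, edgeR adjusted p = 0.000198). Linchoxa1 (now Halr1), which lies beside the Hoxa cluster of body-patterning genes, held 449, 359 and 737 counts in ID8 and 102, 197 and 266 in KMF (-1.45 ± 0.33, edgeR adjusted p = 0.0101). Crnde, which lies 1676 bases from the homeobox gene Irx5, was at -0.67 ± 0.21 (edgeR adjusted p = 0.0381), and its call was lost in 5 of the 6 fits without 1 library, with adjusted p up to 0.137 (without ID8 replicate 1), and held only without ID8 replicate 2. Irx5 was at -1.24 ± 0.12 (edgeR adjusted p = 0.000143). 2410004N09Rik (now Epb41l4aos) was at -0.82 ± 0.19 (edgeR adjusted p = 0.0115).

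On this list 3 lincRNAs were higher in KMF. Fendrr, which is needed for heart and body wall development, was at 1, 0 and 0 counts in ID8 and 15, 29 and 41 in KMF. The ratio of the summed counts, scaled by the summed library totals of each line, was 84.3, with a 95% counting interval of 14.7 to 3370. Foxf1, a mesoderm transcription factor 1276 bases from Fendrr and read in the other direction, was at 0.265 FPKM in ID8 and 2.40 in KMF, a log2 fold change of 3.23 ± 0.36 (edgeR adjusted p = 0.00035). 1190002F15Rik (now Lockd), read just downstream of the cell cycle inhibitor gene Cdkn1b, rose from 264, 200 and 140 counts to 634, 550 and 986 (1.86 ± 0.20, edgeR adjusted p = 0.000279). Cdkn1b, the nearest annotated coding gene at 3579 bases, is not in the table, and the nearest listed one is Gprc5a. 5330426P16Rik (now Dubr), known from muscle differentiation, rose from 97, 137 and 133 counts to 296, 508 and 639 (1.97 ± 0.28, edgeR adjusted p = 0.000992). None of the KMF values of these genes overlapped those of ID8.

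**Figure D2:**
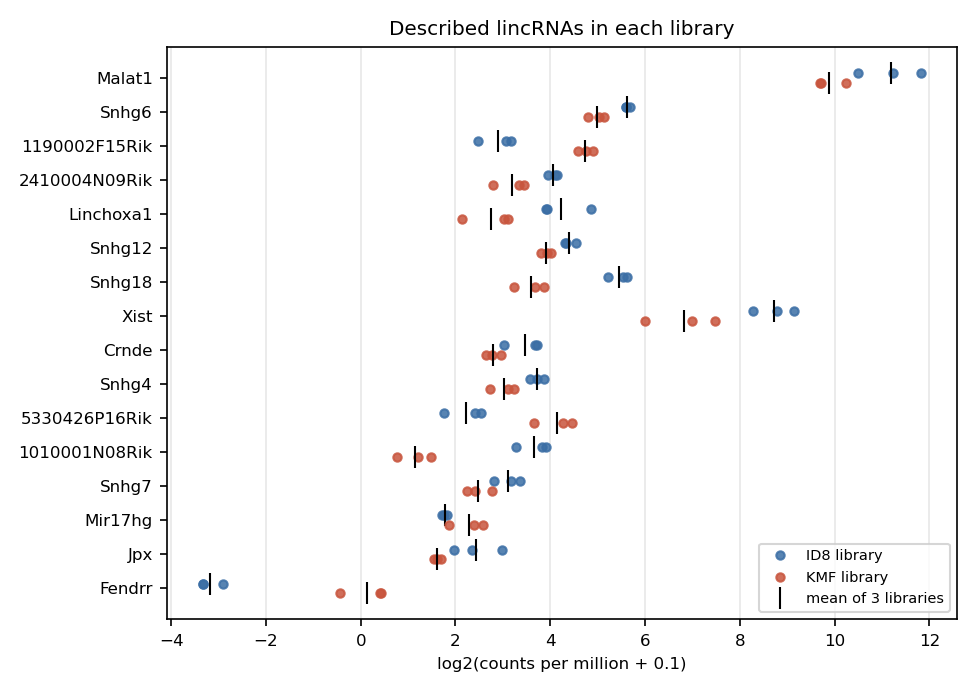
Level of the 16 described lincRNAs in each library, as log2(CPM + 0.1), ordered by mean FPKM from Malat1 down. Points are single libraries and bars the mean of 3. Fendrr, 1190002F15Rik and 5330426P16Rik lie higher in KMF and the points of Mir17hg, which was not called, lie close together.

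The largest rises were mostly genes at or near the floor in ID8, taken as 3 counts or fewer in every library of a line. RP24-72G22.2 (RefSeq name 2810404M03Rik) was at 0 counts in all 3 ID8 libraries and at 45, 65 and 55 in KMF, at least 18.6-fold higher against a floor of 3 counts per library. AI662270 was also at 0 in ID8, with 12, 30 and 16 counts in KMF, at least 6.67-fold higher. Gm26747 had 1 count in ID8 in all and 62, 51 and 61 in KMF, a ratio of 173 with a counting interval of 30.6 to 6858. RP24-98O21.6 had 3, 1 and 0 against 42, 71 and 87, a ratio of 49.6 (19.1 to 184). Gm26651 had 0, 1 and 0 against 12, 13 and 21, a ratio of 45.6 (7.79 to 1842). No function is given here for these genes, which the annotation knows only by clone or model names.

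AI427809 stood apart from these in level. It was at 3, 13 and 1 counts in ID8 and at 1598, 1590 and 2195 in KMF, which is 0.111 ± 0.134 against 33.2 ± 0.674 FPKM. The 3 KMF values lay close together in FPKM, and the log2 fold change of 8.30 ± 0.40 had the smallest adjusted p of all 122 called lincRNAs (edgeR adjusted p = 1.09e-05). Without 1 library the log2 fold change lay between 7.82 and 9.82. AI427809 lies at chr4:53261356-53270232 on the minus strand of GRCm38. Its nearest listed coding gene, the cholesterol exporter gene Abca1, is 101461 bases away and was higher in KMF at 1.68 ± 0.46 (edgeR adjusted p = 0.0226), a call lost without any 1 of the ID8 libraries (adjusted p up to 0.0685) and in 2 of 9 other settings (up to 0.103). The other large rises were G730013B05Rik (4, 1 and 2 counts against 23, 52 and 41, 4.05 ± 0.56), Gm17315 (12, 17 and 15 against 146, 119 and 180, 3.35 ± 0.28) and 3930402G23Rik (9, 5 and 5 against 46, 40 and 75, 3.07 ± 0.33), all called with edgeR adjusted p of at most 0.000951.

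The largest falls followed the same pattern with the lines exchanged. Gm2044, the host of miR-202, held 48, 18 and 127 counts in ID8 and 0, 1 and 0 in KMF, a ratio of 194.5 (counting interval 34.5 to 7722). The ID8 libraries differed widely among themselves. Gm16701 (27, 12 and 12 against 1, 0 and 0), RP23-469H11.1 (26, 10 and 24 against 0, 1 and 1), C230088H06Rik (21, 14 and 33 against 1, 0 and 2) and 4732419C18Rik (42, 39 and 13 against 0, 3 and 2) had ratios of 51.4, 30.2, 22.8 and 18.9. Above the floor, Gm14486 fell from 134, 80 and 127 counts to 9, 6 and 5 (-4.00 ± 0.38, edgeR adjusted p = 0.00015) and B230208H11Rik from 134, 117 and 104 to 12, 13 and 25 (-2.82 ± 0.26, edgeR adjusted p = 0.000137). 1700018A04Rik (-2.82 ± 0.48) and Gm26691 (-2.83 ± 0.78) were called with edgeR adjusted p of 0.0025 and 0.0227. The latter call was lost without ID8 replicate 1, KMF replicate 1 or KMF replicate 3 (adjusted p up to 0.1). Gm26691 overlaps Cxxc4 (-3.06 ± 0.23) and C230088H06Rik overlaps Gm13139 (-1.89 ± 0.22), coding genes on the other strand that were called lower. Reads of these pairs cannot be told apart.

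AU020206 was the most abundant of the strongly lowered genes. Its counts were 2546, 1554 and 2833 in ID8 and 210, 242 and 387 in KMF, or 133 ± 35.1 and 15.8 ± 2.10 FPKM. The lines did not overlap, and the log2 fold change was -3.03 ± 0.20 (edgeR adjusted p = 3.64e-05). The other lincRNAs among the 10 highest in FPKM were Gm26809, with 12727, 11417 and 8628 counts against 5941, 3635 and 4622 (-1.14 ± 0.24, edgeR adjusted p = 0.0065), and 1810058I24Rik, with 3491, 3266 and 2520 against 2128, 1496 and 2126 (-0.65 ± 0.17, edgeR adjusted p = 0.0199). The call of 1810058I24Rik was lost without ID8 replicate 1, ID8 replicate 2, KMF replicate 2 or KMF replicate 3, with adjusted p up to 0.0793. Of the 10, 1190002F15Rik alone was higher in KMF.

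**Figure D3:**
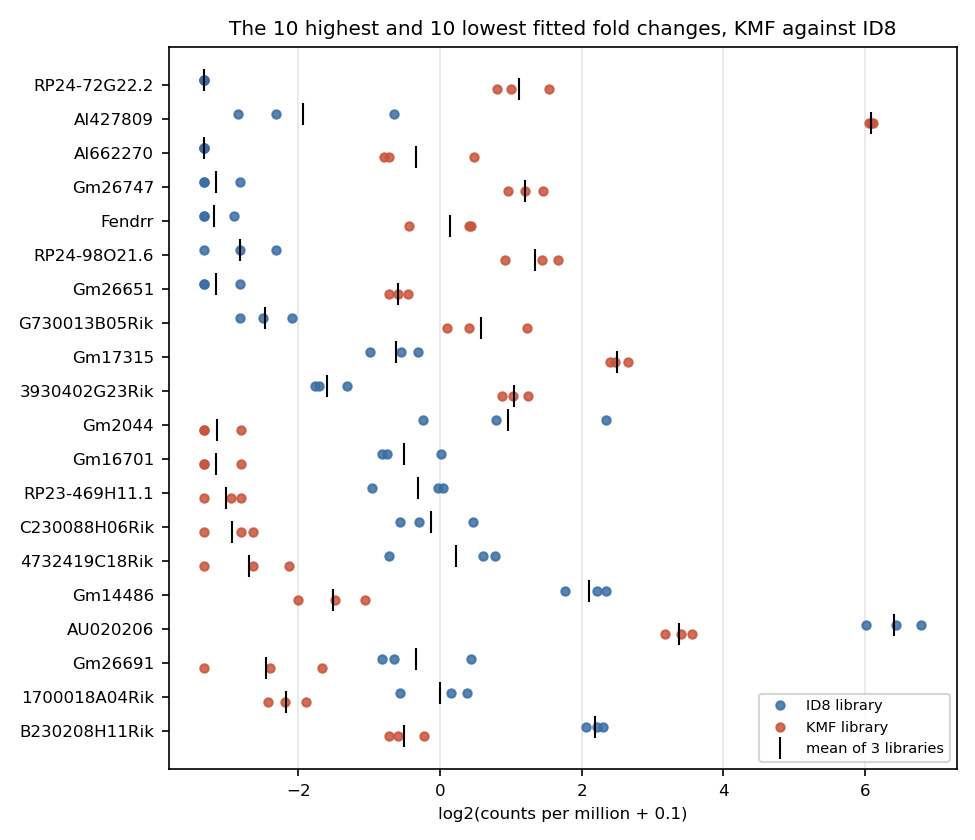
Level in each library, as log2(CPM + 0.1), of the 10 called lincRNAs with the largest fitted rise (top) and the 10 with the largest fitted fall in KMF (bottom). A library with 0 counts lies at the left edge, where RP24-72G22.2 and AI662270 have all 3 ID8 points, and AU020206 and AI427809 reach far higher levels than the rest.

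A line was at the floor for 33 of the 163 lincRNAs, 20.2% against a background of 7.06% of listed genes, and the same share as of the antisense genes (20.2%). Among pseudogenes it was 16.7%. ID8 was at the floor for 13 and KMF for 20, and 7 lincRNAs in each were at 0 in all 3 libraries of the line. Of the 33, 11 passed the filter and were fitted. The unfitted ones at 0 in ID8 were Gm11033, with 17, 7 and 35 counts in KMF (at least 6.06-fold higher), 5033428I22Rik (20, 3 and 6), Gm13780 (4, 5 and 12), Gm11884 (4, 7 and 9) and Gm16194 (2, 7 and 6). Those at 0 in KMF had at most 15 counts in any ID8 library and were at least 1.62-fold to 2.61-fold lower. Irx3os was one of them, with 6, 8 and 5 counts in ID8. It overlaps the homeobox gene Irx3 on the other strand, so that reads of the pair cannot be told apart. Irx3 itself was at 1.64 FPKM in ID8 and 0 in KMF. At these depths a value of 0 does not show that a gene is silent. The 29 unfitted lincRNAs, 7 higher and 22 lower, had at most 43 counts in any library.

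Of the 12 fitted lincRNAs that edgeR did not call, 6 were higher and 6 lower, with adjusted p between 0.0510 and 0.0849. Mir17hg, the host of the miR-17-92 cluster and a known target of Myc, was one of them. It held 97, 83 and 82 counts in ID8 and 84, 119 and 196 in KMF, or 0.935 ± 0.0346 and 1.38 ± 0.338 FPKM. The count of KMF replicate 1 lay within the ID8 range, although the lines did not overlap once scaled to the library totals. The log2 fold change was 0.60 ± 0.23 (edgeR adjusted p = 0.0849). In the fits without 1 library the edgeR adjusted p of Mir17hg lay between 0.0245 and 0.2825, so that its call depended on the library left out. In 9 lincRNAs the libraries of the lines overlapped in CPM, among them A330023F24Rik, the host of miR-29b-2 and miR-29c (-1.53 ± 0.59, edgeR adjusted p = 0.0845).

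RefSeq microRNAs lay within 7 of the lincRNA genes on the same strand. The mature microRNAs were not measured here, since poly-T beads do not capture them, so that the host values say nothing of their levels. Gm26691 holds miR-1895. The sequences of 3 other hosts, chosen because they are described above and belong to well-known families or to the largest fall, are shown 5′ to 3′ with the seed, bases 2 to 8, in capitals, from RefSeq on GRCm38.p6. In Mir17hg (plus strand of chromosome 14), miR-17-5p (chr14:115043684-115043706) and miR-20a-5p (chr14:115044183-115044205) share a seed, as do miR-19a-3p (chr14:115044048-115044070) and miR-19b-3p (chr14:115044358-115044380), while miR-92a-3p has its own.
miR-17-5p: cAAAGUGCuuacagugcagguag
miR-20a-5p: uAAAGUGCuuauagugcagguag
miR-19a-3p: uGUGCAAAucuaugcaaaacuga
miR-19b-3p: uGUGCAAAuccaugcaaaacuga
miR-92a-3p: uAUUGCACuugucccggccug
In A330023F24Rik, miR-29b-3p (chr1:195037091-195037113) and miR-29c-3p (chr1:195037600-195037621) share a seed too, and Gm2044, the gene with the largest fall, holds miR-202 (chr7:139957732-139957752 for the 5p arm, minus strand).
miR-29b-3p: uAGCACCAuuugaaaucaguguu
miR-29c-3p: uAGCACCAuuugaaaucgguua
miR-202-5p: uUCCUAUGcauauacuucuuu
miR-202-3p: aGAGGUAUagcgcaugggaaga

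Not all of these genes were intergenic in another annotation. GENCODE release M21 gives 106 of the 163 identifiers as lincRNA, 15 as processed transcripts, 15 as bidirectional promoter RNAs and 14 as antisense. It gives 2 as TEC, a provisional type, and 1 each as snoRNA, transcribed pseudogene and protein-coding. The protein-coding one is Pmis2, counted above among the lincRNAs called lower. A total of 8 were not in that release. Of those with exons there, 145 had several and 10 had 1. An annotated protein-coding gene overlapped 55 lincRNAs, and a listed protein-coding gene overlapped 27. Without strand in the libraries, reads of the overlapping genes cannot be told apart in any of these, whether or not the coding gene is listed.

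For each lincRNA the nearest listed protein-coding gene was found by the gap between gene bodies. It lay within 1 Mb for 161, and 106 of these pairs, 65.8% (95% Wilson interval 58.2% to 72.7%), differed between the lines in the same direction. Listed protein-coding genes and their own nearest listed coding gene did so in 64.6% of 6792 cases. Within 10 kb the shares were 53 of 69 (76.8%) and 70.3%, between 10 and 100 kb 35 of 60 (58.3%) and 61.4%, and between 100 kb and 1 Mb 18 of 32 (56.3%) and 59.9%. Each coding share lay inside the 95% Wilson interval of the lincRNA share at that distance, so that no difference between the classes could be read from these pairs. Log2 fold changes of lincRNA and neighbour had Pearson r = 0.192 and Spearman rho = 0.373 over 129 pairs with both fitted, and coding neighbours r = 0.229 and rho = 0.276 over 6278. These are descriptions across genes of the same 6 libraries, and neighbours share chromosome segments.

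**Figure D4:**
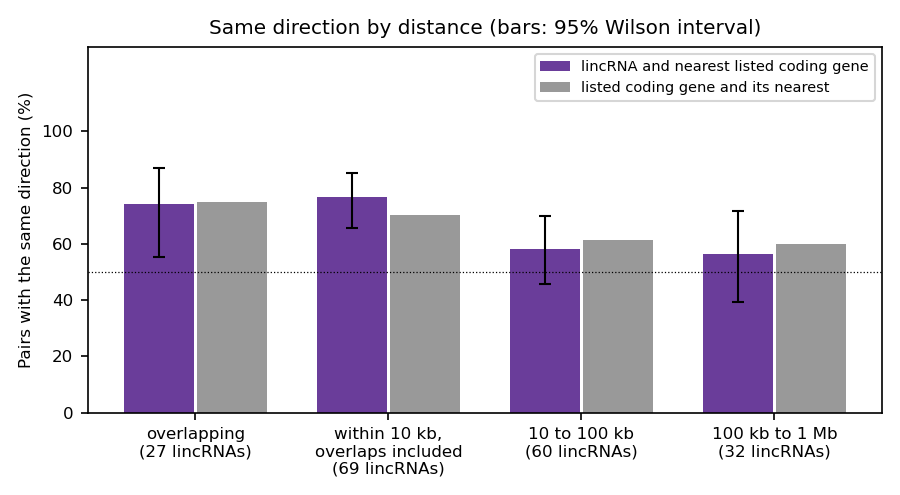
Share of pairs with the same direction of difference, by the gap between gene bodies, for lincRNAs and their nearest listed protein-coding gene and for listed coding genes and theirs. Bars on the lincRNA columns are 95% Wilson intervals for counting error, and the dotted line marks 50%. The share is 76.8% within 10 kb and 56.3% beyond 100 kb for lincRNAs.

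Head-to-head pairs, in which a lincRNA and a listed coding gene start within 1 kb on opposite strands, numbered 29. In 23 (79.3%) both genes moved the same way, 15 of 19 where the deposited gene bodies did not overlap and 15 of 20 where both were called. In GENCODE release M21, Gm26704 and B230217O12Rik of these 19 do overlap their partners Fzd6 and Fam160b1. Coding genes arranged head to head with each other did so in 168 of 221 cases (76.0%). Among the pairs lower in KMF, Snhg18 starts 151 bases from Sema5a, an axon guidance gene, which fell from 4112, 3342 and 1903 counts to 648, 246 and 465 (-2.72 ± 0.39, edgeR adjusted p = 0.00109). Gata6, 57 bases from the start of 1010001N08Rik, fell by 1.12 ± 0.13 on the log2 scale (edgeR adjusted p = 0.000348), but the gene bodies overlap, so that reads of the pair cannot be told apart. Gm26641 (30, 28 and 30 counts against 7, 9 and 14) fell with the junction adhesion gene F11r (-1.03 ± 0.12, edgeR adjusted p = 0.000452). A530020G20Rik (-2.54 ± 0.31) fell with the choline transporter family gene Slc44a3 (-2.93 ± 0.13), which it overlaps, both called (edgeR adjusted p = 0.000533 and 8.16e-06).

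Higher in KMF were 2010110K18Rik, with 8, 8 and 7 counts against 18, 13 and 39 (1.56 ± 0.41, edgeR adjusted p = 0.0183), and its partner Cdc25c, a phosphatase of mitotic entry (2.56 ± 0.26, edgeR adjusted p = 0.000221). The call of the lincRNA was lost without ID8 replicate 1 or KMF replicate 3 (adjusted p up to 0.0884). 9130019P16Rik (1.84 ± 0.28) rose with Wipf3 (2.96 ± 0.17), an actin regulator that it overlaps, with edgeR adjusted p of 0.00154 and 2.18e-05. In Gm17315 and Cdc42ep3, a septin and actin regulator whose gene body it overlaps, the lincRNA rose by 3.35 and the coding gene by 0.53 ± 0.09 (edgeR adjusted p = 0.00303).

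In 6 head-to-head pairs the genes moved apart, of which 5 are described. Cep83os fell from 439, 321 and 366 counts to 200, 160 and 262 (-0.83 ± 0.14, edgeR adjusted p = 0.00222), and Cep83, a gene of the centriole, 177 bases away, rose by 0.71 ± 0.15 (edgeR adjusted p = 0.00686). Gm15834 and Orc2, Gm26707 and Cyp2s1, and AA543186 and Man1b1 had a lower lincRNA beside a higher coding gene, though Man1b1 was not called (edgeR adjusted p = 0.0731) and the call of Orc2 (edgeR adjusted p = 0.0400) was lost in all 6 fits without 1 library (adjusted p up to 0.132) and in 8 of 9 other settings (0.0725 with DESeq2, up to 0.244). The gene bodies of Gm26707 and Cyp2s1 and of AA543186 and Man1b1 overlap. Gm26770 was higher beside a lower Tulp3 (edgeR adjusted p = 0.0156), whose call was lost without ID8 replicate 1, KMF replicate 2 or KMF replicate 3 (adjusted p up to 0.0827). Gm26770 also overlaps Rhno1 on the other strand, which was higher too (0.62 ± 0.12, edgeR adjusted p = 0.00397). Reads of Gm26770 and Rhno1 cannot be told apart. Calls of AA543186 and Gm26707 were also lost without single libraries, the former in 5 of the 6 fits (all but that without ID8 replicate 1, adjusted p up to 0.124) and the latter without ID8 replicate 1 (0.0528).

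**Figure D5:**
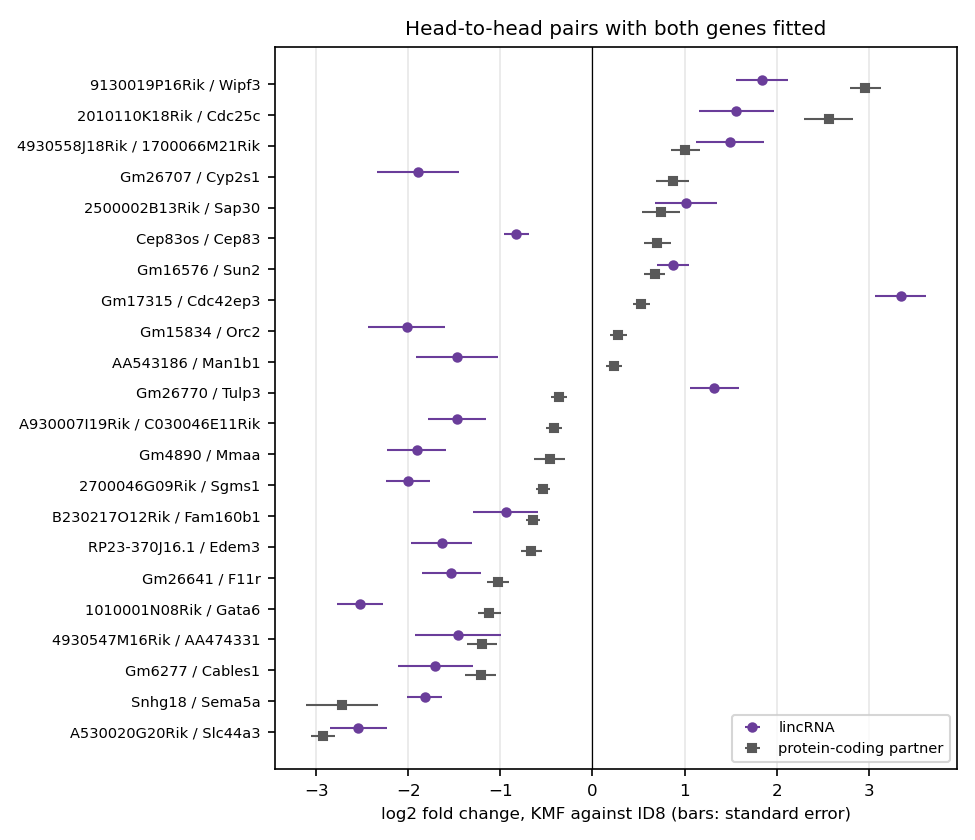
Log2 fold change of KMF against ID8, with standard error, of the lincRNA (circles) and its protein-coding partner (squares) in 22 head-to-head pairs with both genes fitted. In 17 pairs both lie on the same side of 0, and Cep83os with Cep83 and Gm26707 with Cyp2s1 lie on opposite sides.

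Promoter sequences, 250 bases before to 50 after the start, were matched in RefSeq for 98 of the lincRNAs, and for 83 of these the RefSeq start lay within 500 bases of the deposited one. Of these 83, 53.0% held GGGCGG, the core of the Sp1 motif, on either strand, compared with 35.7% of all 32851 promoters. The motif CCAAT was in 44.6% against 37.4%, TATAAA in 15.7% against 13.6%, the E-box CACGTG in 8.43% against 7.15% and TGACTCA, the AP-1 motif, in 4.82% against 5.20%. The 18 head-to-head members had a median of 32 CG dinucleotides and no TATAAA, and the other 65 had 11 CG and held TATAAA in 13 cases, against a median of 7 CG over all promoters. None of these motifs contains another, both strands were searched, and a match is not a site of binding.

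Of these promoters 6 are shown, chosen because their lincRNAs are described above, in the direction of the lincRNA and with each CG dinucleotide in capitals. The stretches of Cep83os (chr10:94688564-94688863, minus strand of GRCm38.p6) and Snhg18 (chr15:32244613-32244912, minus strand) each hold both starts of a head-to-head pair and reach into both genes. The first pair moved apart and the second together, and both stretches are rich in CG.
Cep83os: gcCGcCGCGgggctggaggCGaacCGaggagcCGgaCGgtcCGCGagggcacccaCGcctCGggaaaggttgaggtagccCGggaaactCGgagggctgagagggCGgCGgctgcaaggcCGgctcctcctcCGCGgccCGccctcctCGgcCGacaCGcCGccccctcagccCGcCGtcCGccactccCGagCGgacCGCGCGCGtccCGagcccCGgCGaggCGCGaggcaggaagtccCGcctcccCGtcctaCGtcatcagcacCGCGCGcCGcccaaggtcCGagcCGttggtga
Snhg18: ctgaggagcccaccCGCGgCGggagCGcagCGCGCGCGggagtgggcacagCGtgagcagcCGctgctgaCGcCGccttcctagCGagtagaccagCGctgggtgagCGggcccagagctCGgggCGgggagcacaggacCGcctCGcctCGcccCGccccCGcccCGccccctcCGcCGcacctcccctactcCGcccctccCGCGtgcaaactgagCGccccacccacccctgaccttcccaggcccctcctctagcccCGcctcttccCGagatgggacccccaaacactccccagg
Gm17315 (chr17:79354449-79354748, plus strand) and Fendrr (chr8:121083061-121083360, minus strand), both higher in KMF, have 20 and 31 CG.
Gm17315: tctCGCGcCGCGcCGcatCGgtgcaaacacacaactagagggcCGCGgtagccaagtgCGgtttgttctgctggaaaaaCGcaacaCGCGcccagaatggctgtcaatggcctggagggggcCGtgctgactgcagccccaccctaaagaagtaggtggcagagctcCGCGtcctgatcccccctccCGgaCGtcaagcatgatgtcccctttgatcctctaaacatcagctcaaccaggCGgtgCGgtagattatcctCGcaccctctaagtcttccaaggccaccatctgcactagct
Fendrr: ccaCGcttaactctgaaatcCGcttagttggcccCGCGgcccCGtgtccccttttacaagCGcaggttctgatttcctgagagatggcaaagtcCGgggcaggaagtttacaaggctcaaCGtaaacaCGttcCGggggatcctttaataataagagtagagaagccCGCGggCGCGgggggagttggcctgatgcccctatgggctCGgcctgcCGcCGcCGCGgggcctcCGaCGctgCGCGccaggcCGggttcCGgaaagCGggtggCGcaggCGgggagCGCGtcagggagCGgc
AU020206 (chr7:75782071-75782370, minus strand), the abundant RNA that fell, has 15 CG, and RP24-72G22.2 (chr8:41827017-41827316, plus strand), at 0 counts in ID8, has none.
AU020206: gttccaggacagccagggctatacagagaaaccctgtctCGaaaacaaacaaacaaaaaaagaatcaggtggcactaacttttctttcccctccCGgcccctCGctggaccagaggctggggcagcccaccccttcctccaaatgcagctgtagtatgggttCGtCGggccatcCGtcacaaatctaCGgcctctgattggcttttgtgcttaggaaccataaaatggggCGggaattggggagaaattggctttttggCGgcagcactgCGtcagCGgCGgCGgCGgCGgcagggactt
RP24-72G22.2: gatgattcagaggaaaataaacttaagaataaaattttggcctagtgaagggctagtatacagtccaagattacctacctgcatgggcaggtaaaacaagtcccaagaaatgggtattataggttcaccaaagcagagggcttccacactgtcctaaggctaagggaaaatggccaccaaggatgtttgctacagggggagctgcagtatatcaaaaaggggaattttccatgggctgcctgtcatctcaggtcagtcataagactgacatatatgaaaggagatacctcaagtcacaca

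By position, chromosome 8 held the most lincRNAs, 16, of which 9 were higher in KMF while 33.6% of the 396 listed genes of that chromosome were. On chromosome 17 all 4 were higher, compared with 49.7% of its listed genes. None of 4, 6 and 4 were higher on chromosomes 3, 10 and X, compared with 73.4%, 40.1% and 37.5% of the listed genes there. On chromosome 6, 3 of 15 were higher, compared with 33.2% of its listed genes. Stretches with at least 3 lincRNAs, each within 1 Mb of the next, were found on chromosomes 8, 14 and 18. On chromosome 8, between 120204434 and 121427188, A330074K22Rik (-0.81 ± 0.21) and Gm26572 (-1.05 ± 0.31) were lower and Fendrr and Gm26747 higher. The calls of A330074K22Rik and Gm26572 were lost in 3 and 5 of the 6 fits without 1 library (edgeR adjusted p up to 0.0699 and 0.116), the first without ID8 replicate 2, KMF replicate 2 or KMF replicate 3 and the second in all but that without ID8 replicate 2. On chromosome 14, of Gm26660, Gm26772, 4933413J09Rik and Gm16241 only 4933413J09Rik passed the filter on low counts and was tested. It fell from 140, 59 and 125 counts to 16, 18 and 19 (-2.53 ± 0.35, edgeR adjusted p = 0.00089). The untested ones had 43, 18 and 8 counts in ID8 and 5, 4 and 6 in KMF (Gm26660), 35, 7 and 32 against 3, 0 and 4 (Gm26772) and 29, 9 and 20 against 0, 0 and 7 (Gm16241).

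Genes of proteins known to work with long noncoding RNAs were counted from 2 short lists. With 92.9% of all fitted genes called, counts of calls say nothing particular about either. Of 11 genes of Polycomb repressive complex 2, which writes a repressive histone mark and binds many RNAs, 5 were listed. Ezh2 (1.08 ± 0.13), Eed (0.51 ± 0.09) and Phf19 (2.59 ± 0.16) were called higher and Ezh1 (-0.83 ± 0.10) lower, with edgeR adjusted p of at most 0.00249, and Suz12 was at 0.25 ± 0.09 (edgeR adjusted p = 0.0731). Of 8 paraspeckle and related RNA-binding proteins, 5 were listed and called. Sfpq (0.29 ± 0.09), Rbm14 (0.50 ± 0.11) and Tardbp (0.30 ± 0.08) were higher and Nono (-0.36 ± 0.07) and Matr3 (-0.23 ± 0.06) lower, all less than 2-fold. The calls of Sfpq and Matr3 were each lost in 5 of the 6 fits without 1 library (adjusted p up to 0.0888 and 0.125), and held only without KMF replicate 2 and ID8 replicate 3. The call of Sfpq was also lost in 8 of 9 other settings (adjusted p = 0.0710 with DESeq2, up to 0.244), and those of Matr3 and Tardbp in 1 each (0.0624 and 0.102).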

How the data were processed

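RNA of 3 ID8 and 3 KMF libraries was compared. Reads had been mapped with TopHat2 per the study's methods and with STAR 2.5 per the submitters' processing notes, which also name CASAVA 1.8, mm10 and DESeq2. The counting tool, annotation release and use of strand are not given in the sources used here. The deposited table gives raw read counts per gene, which the authors did not normalize, and FPKM, which the authors scaled to gene length and to each library's total on genes. The authors' deposited signal columns are the mean of scaled counts per line, and the authors' deposited log2 column is their DESeq2 fold change. Neither was used. Deposited p-values of the authors' test served only to find how many genes they tested, and none adjusted exceeds 0.0499. Positions are those deposited, on GRCm38, where 7293 of 7320 identifiers overlap GENCODE M21.

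Library totals were recovered from counts, FPKM and length. Counts were fitted for all listed genes with edgeR 4.0.16 in R 4.3.3 (filterByExpr, TMM scaling, glmQLFit and glmQLFTest, two-sided), and p-values adjusted by Benjamini-Hochberg over 17359 genes. The standard error is the log2 fold change divided by the root of F. On simulated data of the same size the step called 80% of 200 genes changed by 1 log2 unit and no unchanged gene. Counting intervals are exact (Clopper-Pearson) and, like floors, cover counting error only, since there were no molecular identifiers. P-values measure the spread between these samples, which were independent isolations of 1 line each. Alternatives used limma 3.58.1, DESeq2 1.42.0, other scalings and filters, and each library left out. Python 3.11.15, pandas 2.3.3, scipy 1.17.1 and matplotlib 3.10.9 were also used.

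The members and lists were chosen with earlier results of these data known. Named lincRNAs are those on a list of described functions, the 10 largest called rises and falls, and the 10 highest in FPKM. Also named are the 5 floor members per direction with the highest counts and those head to head with a listed gene. Those in stretches of 3 or more, each within 1 Mb of the next, are named too. Others named with a value (Irx3os, 9430037G07Rik, 9330159M07Rik, 2810008D09Rik, unfitted members at 0 and A330023F24Rik) were chosen after their values were seen. Genes that the table does not list were not analysed here. Head-to-head pairs are described in part, and 1 is left out of the plot.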

Additional observations from a re-analysis of the deposited data

How the results depend on the processing

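The 122 lincRNAs called (39 higher, 83 lower) became 78 (20 higher) with at least 10 counts required in every library, and 65 (20 higher, 45 lower) with limma on log2(FPKM + 1), both of which test fewer genes, 89 and 76. Those called and changed at least 2-fold, 91, became 48 and 25. The median log2 fold change of -0.92 became -0.60 with limma on log2(FPKM + 1). That setting changed the test, the pseudocount and the genes fitted together, so that the move cannot be put down to 1 of them. Without 1 library, calls lay between 83 and 112 (29 to 39 higher, 54 to 82 lower), calls of at least 2-fold between 70 and 95, and medians between -1.04 and -0.81. The 54 lower calls came without ID8 replicate 1, where the cause was not tested. In each of the 15 other settings lower calls outnumbered higher ones, with 25.6% to 37.5% of calls higher. Upper quartile scaling moved the median of all fitted genes from -0.23 to -0.35 and that of the lincRNAs to -1.03. Members at the floor rose from 33 to 57 with a floor of 10 counts and to between 33 and 41 without 1 library. With an FPKM threshold of 0.1, 116 lincRNAs passed in both lines, 17 in KMF only and 2 in neither, and with a threshold of 2, 14 passed in ID8 only. Without 1 library 49 to 51 passed in both lines, 25 to 31 in ID8 only, 11 to 13 in KMF only and 70 to 76 in neither. Pairs with the same direction, 65.8% with every library left out in turn, were 76.8% within 10 kb and 77.4% where the nearest annotated coding gene was itself listed. Leaving out each library for the floor and for these pairs was chosen after seeing the data. Of 60 fitted named lincRNAs, 42 kept their side of the threshold in every setting that could be fitted, none of 847 values changed sign, and 15 lost a call without 1 library. With the replicate number as a block, 99 lincRNAs were called (33 higher, 66 lower), and 7 named ones were not (2010110K18Rik, 4930547M16Rik, AA543186, Crnde, Gm26572, Gm26691 and Jpx). Same-numbered libraries did not deviate together (correlations 0.083, -0.138 and 0.095), and only ID8 replicate 1 correlated best with its own number, so the numbers give no pairing. The 29 lincRNAs that did not pass the filter on low counts were not tested in the main fit, and their values rest on few counts. Without that filter all 163 were fitted and 151 called (47 higher, 104 lower), with 121 of the 122 main calls among them.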
